A study of Mus musculus with 6 samples.

Results

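Actb, Actg1, Acta2, Tagln, Cnn1, Cnn2, Vcl, Tpm1, Myl9 and Srf are actin genes and cytoskeletal genes controlled by serum response factor (SRF). These 10 genes were chosen by name, with their levels in these libraries already known, and all 10 were found among the 24421 genes of the table. RNA with polyA tails was sequenced from 2 groups of E14 mouse embryonic stem cells, Pml-/- (knockout) and wild type, with 3 libraries each. Pml encodes the scaffold of PML nuclear bodies. E14 is a male line, and both groups were grown in medium with fetal bovine serum, leukemia inhibitory factor, the GSK3 inhibitor CHIR99021 and the MEK inhibitor PD0325901. The labels do not say how Pml was disrupted or whether replicates are separate cultures or clones. The names of the 3 knockout columns share 1 prefix, so they may come from a single line. Errors and p-values therefore cover the variation from library to library, part or all of which may be technical.

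Actin is the monomer of the thin filaments that shape and move cells. The SRF cofactors of the MRTF family bind actin monomers in the cytoplasm, and when monomers are drawn into filaments they enter the nucleus and switch on SRF targets. SRF binds a short sequence, the CArG box, and its targets include the actins themselves, Srf, and genes for proteins that bind, cross-link or anchor filaments. A further set of SRF partners, the ternary complex factors, answers to ERK and drives immediate-early genes such as Fos. In embryonic stem cells the non-muscle actins form the cortex, while the smooth muscle genes of this family are largely silent.

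The CArG box is what these genes are known to share at the DNA level, so the sequences around it are shown first. RefSeq promoter windows (GRCm38.p6, the same assembly as mm10) were found for 8 of the 10 genes, and those of Actb and Tagln were not used here. In the 250 bases before the transcription start, 5 of the 8 held a CArG box. The pattern of the box, though not the letters of each box, is the same on both strands. Of all 32851 promoters of that length, 1.47% held a CArG box. Capitals mark the box, and each stretch reads 5′ to 3′ on the strand of the gene. The stretch of Actg1, which encodes cytoplasmic gamma-actin, is chr11:120348551-120348610 on the minus strand.
Actg1: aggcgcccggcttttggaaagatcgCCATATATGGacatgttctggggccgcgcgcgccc
Cnn2 encodes calponin 2, an actin-binding protein of non-muscle cells, and its stretch is chr10:79988519-79988578 on the plus strand.
Cnn2: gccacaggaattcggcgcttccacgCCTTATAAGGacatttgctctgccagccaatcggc
Srf holds a pair of boxes, at chr17:46556190-46556269 on the minus strand.
Srf: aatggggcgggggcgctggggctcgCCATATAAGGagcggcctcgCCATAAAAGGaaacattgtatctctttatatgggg
Vcl encodes vinculin, which links filaments to adhesion sites, and its stretch is chr14:20929148-20929205 on the plus strand.
Vcl: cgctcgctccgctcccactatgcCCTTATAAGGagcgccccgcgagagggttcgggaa
Myl9, a myosin regulatory light chain gene of smooth muscle, has its stretch at chr2:156775278-156775337 on the plus strand.
Myl9: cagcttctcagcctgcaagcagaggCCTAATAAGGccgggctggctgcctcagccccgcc

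The first base of the box lay 90 bases before the start in Actg1, 56 in Cnn2, 82 and 62 in Srf, 227 in Vcl and 161 in Myl9. Cnn2 and Vcl carried the same 10 letters. Acta2, the smooth muscle alpha-actin gene, held no such box but a pair of boxes with 1 other base among the inner 6. They began 84 and 34 bases before the start, at chr19:34255374-34255482 on the minus strand. Myl9 held 1 such box as well, 99 bases before the start and outside the stretch shown. Of all promoters, 8.59% held a box when 1 other base was allowed.
Acta2: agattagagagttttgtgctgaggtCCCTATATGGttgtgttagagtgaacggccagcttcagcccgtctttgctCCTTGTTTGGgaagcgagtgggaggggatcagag
Tpm1, which encodes a tropomyosin, and Cnn1, the calponin of smooth muscle, had neither form in this window. The letters GGGCGG, searched on both strands, were in 6 of the 8 promoters and in 32.7% of all promoters. TATAAA, also on both strands, was in that of Srf alone and in 12.4% of all, and neither motif overlapped a box.

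**Figure D1:**
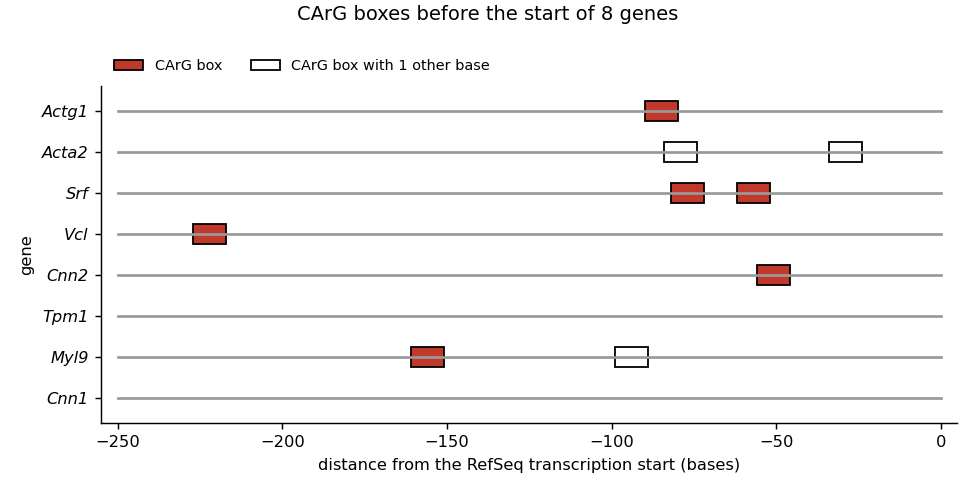
Each line is the stretch of 250 bases before the RefSeq start of 1 gene, with distance from the start in bases on the horizontal axis. Filled blocks are CArG boxes and open blocks are boxes with 1 other base. The boxes of Actg1 and Srf lie 62 to 90 bases before the start, that of Cnn2 lies 56 bases before it, and those of Vcl and Myl9 lie farther out.

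The knockout libraries held 5845653 to 8693079 counted reads and the wild-type libraries 9389186 to 11046725, so depth moved with the group and its part in the results was not tested. Levels are given as CPM, in which each library is scaled to the same total. Pml stood at 77.3, 75.4 and 76.3 CPM in knockout cells, against 186, 194 and 193 CPM in wild-type cells, a log2 fold change of -1.31 (SE 0.0412), so some Pml transcript was still counted in the knockout. Ddx3y, a Y-linked helicase gene, averaged 0.869 ± 0.189 CPM in the knockout and 91.7 ± 5.26 CPM in wild type (SD, n = 3 each). The differences in Pml and in Ddx3y run along the same groups and cannot be told apart as the setting of any result below. Markers of embryonic stem cells were high in both groups. Their levels summed to 7020 to 7238 CPM in the knockout and 6929 to 7109 CPM in wild type. Of 8 listed, 8 were tested and 0 called by limma at an adjusted p under 0.05, against 14.0% of all tested genes. At an unadjusted p under 0.05 there was 1.

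Among the 10 genes, the clearest difference was in beta-actin. Actb transcript was lower in every knockout library, while the levels of Actg1, whose protein is nearly identical, overlapped between the groups. Cnn2 was higher in every knockout library, Myl9 was higher at a low level, and Srf itself lay within the spread between libraries. After a filter on low values 8 of the genes were tested in the fit over the whole table; Acta2 and Cnn1 were below it. At a limma adjusted p under 0.05, 2 of the 8 were called higher and 1 lower, whereas 6.54% of the 12435 tested genes were called higher and 7.49% lower, 14.0% in all. Knockout and wild-type libraries had no overlap in 4 of the 8 genes and in 30.2% of all tested genes. Since the genes were picked with this contrast known, their counts and values are a description and no test is read from them.

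**Figure D2:**
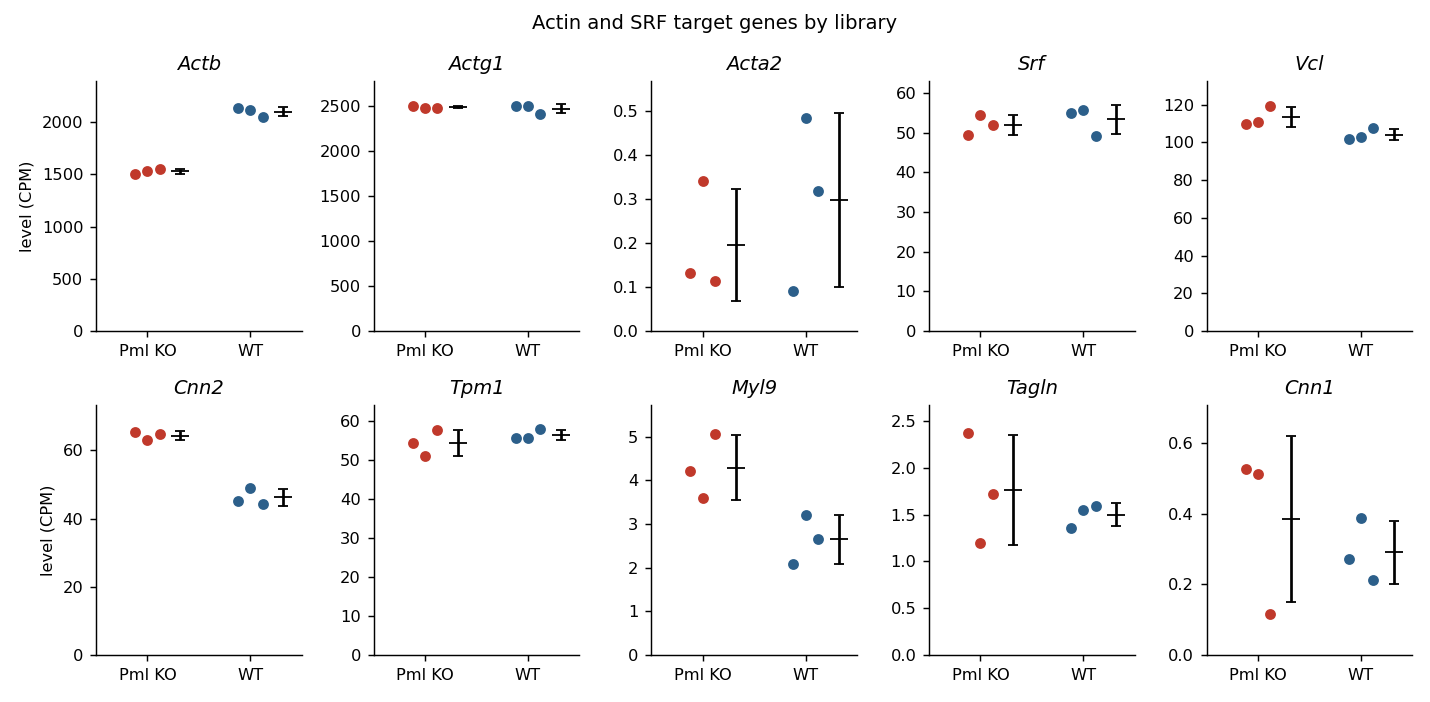
Level in CPM (vertical axes from 0, a scale for each gene) in the 3 knockout libraries and the 3 wild-type libraries; points are libraries, and bars are the mean ± SD. Actb sits lower and Cnn2, Vcl and Myl9 higher in all knockout libraries, while the other 6 genes overlap between the groups.

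Actb (mm10 chromosome 5, 142903115 to 142906754, minus strand), the gene of cytoplasmic beta-actin, stood at 1502, 1528 and 1549 CPM in knockout cells, against 2129, 2118 and 2050 CPM in wild-type cells. The highest knockout library lay well below the lowest wild-type library. The means were 1526 ± 23.7 CPM in the knockout and 2099 ± 42.7 CPM in wild type (SD, n = 3 each), so the knockout held 72.7% of the wild-type level. On the scale of log2(CPM + 1), where changes of genes with few reads come out too small, the fold change of knockout over wild type was -0.46 (SE 0.0231). In the authors' deposited table the log2 fold change of Actb was -0.47. The library-to-library variation of Actb was 1.55% in the knockout and 2.03% in wild type, against 0.942% in the knockout and 0.681% in wild type from counting alone. Less RNA per cell and fewer cells with the transcript cannot be told apart in such bulk samples.

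The gamma-actin gene Actg1 (chromosome 11, 120345690 to 120348542, minus strand) stood at 2498, 2472 and 2476 CPM in knockout cells, against 2492, 2496 and 2407 CPM in wild-type cells. Its groups overlapped, with means of 2482 ± 13.7 CPM and 2465 ± 50.1 CPM in knockout and wild type and a log2 fold change of 0.01 (SE 0.0217). The Actb level was also divided by that of Actg1 within each library. As CPM is already scaled to the library total and Actg1 hardly differed, this ratio largely restates the Actb difference. The ratio was 0.601, 0.618 and 0.626 in the knockout libraries, against 0.854, 0.849 and 0.852 in the wild-type libraries. All 3 knockout ratios were lower than the wild-type ones, with means of 0.615 ± 0.0124 in the knockout and 0.852 ± 0.00281 in wild type. Summed over both genes, cytoplasmic actin transcripts made up 4008 ± 15.1 CPM in the knockout and 4564 ± 92.5 CPM in wild type (SD, n = 3 each).

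**Figure D3:**
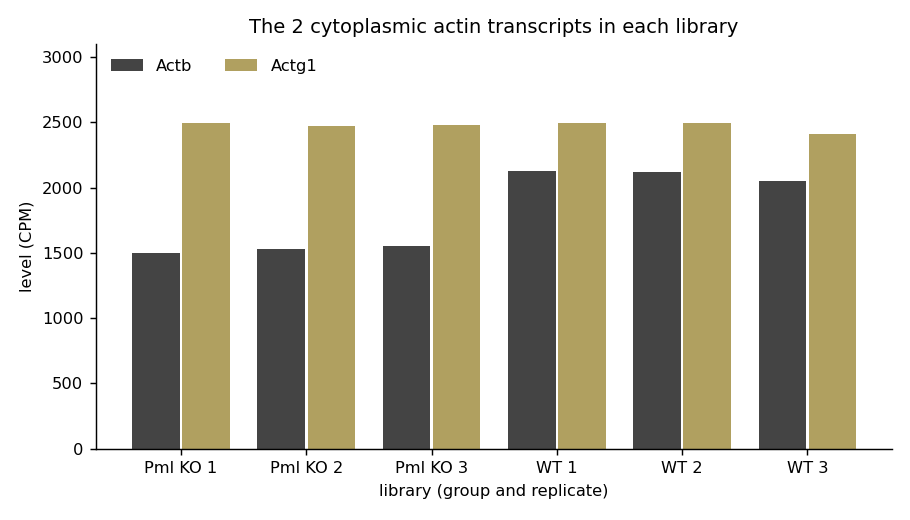
Bars from 0 give the level in CPM of Actb (dark) and Actg1 (light) in each library, knockout libraries on the left. Actb bars stand at 1502 to 1549 CPM in the knockout and 2050 to 2129 CPM in wild type, while Actg1 bars stay between 2407 and 2498 CPM in all libraries.

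Both actin genes have processed copies elsewhere in the genome, so their counts carry some uncertainty. Of all windows of 50 bases in the longest Actg1 coding transcript in GENCODE M21, 56.7% also occurred in a transcript of another gene, mostly in Gm12715, which shared 51.1%. For Actb 9.57% of the windows were found in Lrrc58, and Actb and Actg1 themselves shared 1.6% of the Actb windows. Lrrc58 stood at 67.9 ± 2.53 CPM in the knockout and 73.2 ± 4.35 CPM in wild type. The part of such shared reads in the levels was not tested. Transcripts were searched in their sense direction only. In that search Tagln, Cnn1, Cnn2, Vcl, Tpm1, Myl9 and Srf shared no window with another gene. It does not cover exons on the opposite strand, which overlap those of Tagln and Vcl.

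The Actb difference can be placed among those of other abundant transcripts. Of 291 tested genes with a mean of at least 500 CPM over the 6 libraries, Actb had the lowest log2 fold change. The median of those 291 genes was -0.01, and 39 of them were called higher and 25 lower. The median over all tested genes was 0.0046 on the same scale. In the plot of fold change against level, Actb lies below the band of the other abundant genes.

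**Figure D4:**
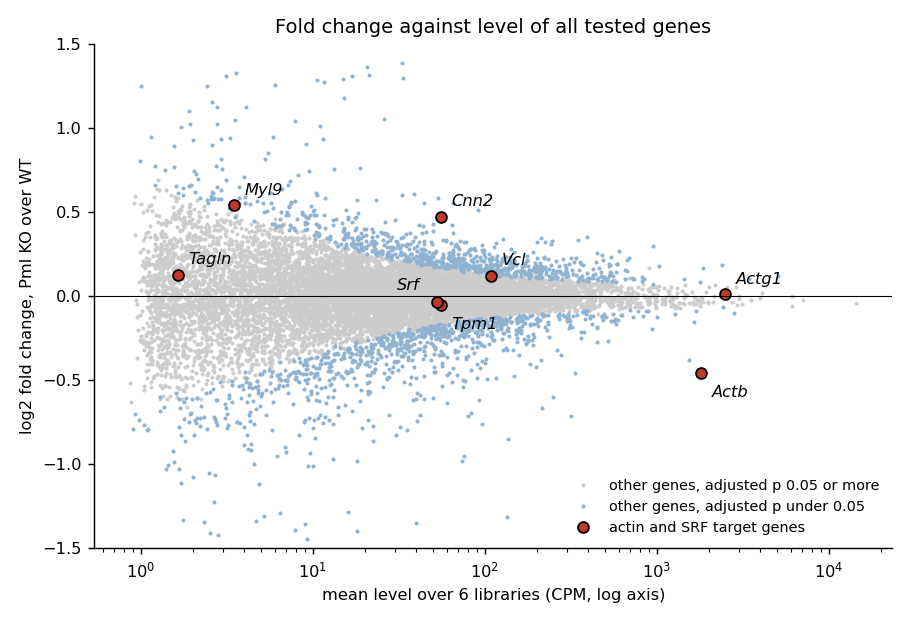
Each point is a tested gene, with its mean level in CPM on a log axis and its log2 fold change, knockout over wild type, on the vertical axis. Large points are the 8 genes that passed the filter; Actb lies at -0.46 and Cnn2 and Myl9 at 0.47 and 0.54. The axis stops at 1.5 in either direction, and 31 genes lie outside it.

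Srf (chromosome 17, 46548329 to 46556175, minus strand), which is also a target of its own protein, stood at 49.3, 54.4 and 52.0 CPM in knockout cells, against 55.0, 55.7 and 49.2 CPM in wild-type cells. The groups overlapped, and the log2 fold change was -0.04 (SE 0.0612). Its cofactor genes gave no call either. Of 6 listed, 5 were tested and 0 were called by limma at an adjusted p under 0.05, against 14.0% of all tested genes. At an unadjusted p under 0.05, 2 of the 5, Mkl2 and Elk3, passed, and no cofactor passed edgeR or DESeq2 on recovered reads. Mkl1, the gene of MRTF-A, stood at 30.9 ± 2.72 CPM in the knockout and 33.5 ± 2.69 CPM in wild type. Elk1, a ternary complex factor, stood at 40.4 ± 4.09 CPM in the knockout and 36.4 ± 1.29 CPM in wild type. Mkl2, the gene of MRTF-B, had a log2 fold change of -0.24 (SE 0.101, limma adjusted p = 0.12). Without knockout replicate 1 limma called 1 cofactor lower, Mkl2 (log2 fold change -0.354, limma adjusted p = 0.0182). Myocd, the cofactor of heart and smooth muscle, was below the filter.

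Among genes that anchor filaments at adhesion sites, Vcl (chromosome 14, 20929398 to 21033676, plus strand) stood at 109.7, 111 and 119.5 CPM in knockout cells, against 102, 103 and 107 CPM in wild-type cells. All knockout libraries lay above all wild-type libraries, but the nearest differed by little, and the log2 fold change was 0.12 (SE 0.0453). Exons of Ap3m1 on the opposite strand cover 25.5% of the Vcl exon bases, and the strandedness of the counting is not given in the sources used here. Ap3m1 itself stood at 85.5 ± 2.70 CPM in the knockout and 82.1 ± 5.39 CPM in wild type.

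The other genes of focal adhesions and filament cross-linking moved in both directions, more of them upward. Of 21 tested, 8 were higher, 2 lower and 11 did not pass, with a median log2 fold change of 0.07. The called share was 47.6%, against 14.0% over all tested genes, which include genes of every level and were not matched to this list. The list was drawn up with earlier results of these data known, so this share is a description and no test is read from it. Flna encodes a filamin, which cross-links filaments into networks, and it rose. Flna stood at 533, 505.5 and 529.7 CPM in knockout cells, against 434, 439 and 453 CPM in wild-type cells (log2 fold change 0.24, SE 0.0298, limma adjusted p = 6.67e-07). Every knockout library lay above every wild-type library.

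Itga5, the fibronectin receptor subunit, rose to 118 ± 5.51 CPM in the knockout, against 101 ± 6.05 CPM in wild type (log2 fold change 0.22, limma adjusted p = 0.00189). Zyx, which encodes zyxin, a protein of strained filaments, rose to 17.4 ± 0.956 CPM, against 13.8 ± 0.307 CPM in wild type (log2 fold change 0.31, limma adjusted p = 0.0277). Other called genes, named after their values were seen, were the cross-linker Actn4, the kindlin Fermt2, the filament-tip protein Enah and the talin Tln1, all higher, and the talin Tln2 and the integrin subunit Itgb1, both lower. Their log2 fold changes were 0.19, 0.21, 0.16, 0.14, -0.20 and -0.13. The calls of Flna, Actn4, Fermt2, Enah and Itga5 held under all 14 alternatives. Zyx was not called without knockout replicate 1 or without wild-type replicate 1, 2 or 3 (adjusted p 0.0981, 0.0789, 0.0652 and 0.0901). Limma without the filter on low values did not call Zyx either (0.0618). Tln1 was lost without knockout replicate 2 (0.0938) and wild-type replicate 2 (0.101). Tln2 was lost without knockout replicate 3 (0.137) and wild-type replicates 1 and 2 (0.0621 and 0.0757). Itgb1 was lost without every library but knockout replicate 1, with adjusted p up to 0.128. DESeq2 on recovered reads called none of Zyx, Tln1, Tln2 and Itgb1.

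**Figure D5:**
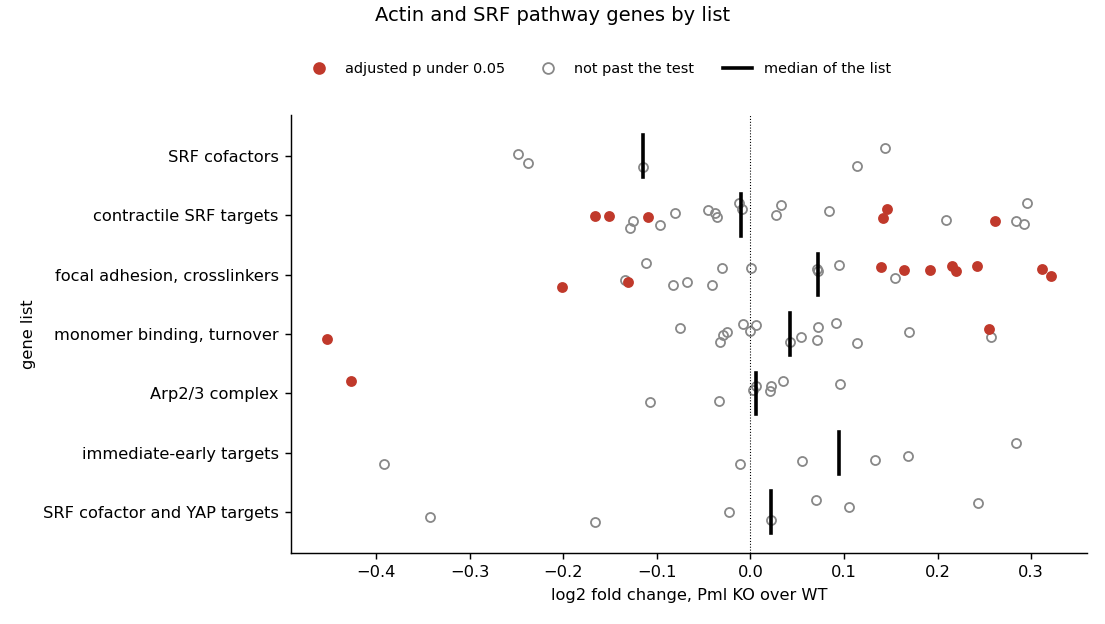
Each circle is a tested gene of the list named on the left, placed by its log2 fold change of knockout over wild type, with no meaning in its height within the row. Filled circles have a limma adjusted p under 0.05 and bars are list medians; focal adhesion and cross-linker genes hold 8 filled circles above 0 and 2 below.

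Genes of proteins that lie along filaments or move on them showed changes in both directions. Cnn2 (chromosome 10, 79988584 to 79996062, plus strand) stood at 65.4, 63.0 and 64.8 CPM in knockout cells, against 45.2, 49.0 and 44.4 CPM in wild-type cells. The groups lay far apart, with means of 64.4 ± 1.27 CPM and 46.2 ± 2.46 CPM in knockout and wild type, and the log2 fold change was 0.47 (SE 0.0573). The knockout held 139% of the wild-type level. In the authors' deposited table the log2 fold change of Cnn2 was 0.47 too, and its locus there spans 672333 bases, far beyond the gene. The loci of Cnn1 and Tagln in that table also run past their genes, over 333747 and 73431 bases.

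Of 9 tested genes within 100000 bases of Cnn2, 1 was called, its neighbour Abca7, a lipid transporter gene. It stood at 24.3 ± 2.13 CPM in the knockout and 19.2 ± 0.471 CPM in wild type (log2 fold change 0.32, limma adjusted p = 0.0117). Around Actb, 1 of 4 such genes was higher and 1 lower. The higher one was Fbxl18 (0.29, limma adjusted p = 0.0484) and the lower one Rnf216 (-0.29, limma adjusted p = 0.000176), while Fscn1, the gene of the filament bundler fascin, had a log2 fold change of -0.03. Over the 10 genes together 44 neighbours were tested, of which 2 were higher and 3 lower, a called share of 11.4% against 14.0% over all tested genes. These neighbours were named after their values were seen. Rnf216 was called under all 14 alternatives. Abca7 was lost without knockout replicate 3 (adjusted p = 0.0744) and wild-type replicate 2 (0.0532). Fbxl18 was lost without knockout replicates 2 and 3 and wild-type replicates 1 and 3 (up to 0.218), and neither it nor Abca7 was called by DESeq2. EdgeR did not call Fbxl18 (adjusted p = 0.0501). Nor did limma after TMM rescaling (0.0518), with a pseudocount of 4 (0.0525) or without the filter (0.115).

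Tpm1 (chromosome 9, 67022590 to 67049406, minus strand) stood at 54.2, 51.0 and 57.6 CPM in knockout cells, against 55.7, 55.6 and 57.9 CPM in wild-type cells. These groups overlapped, with a log2 fold change of -0.06 (SE 0.0579). The table gives 1 value for all tropomyosin isoforms of the gene, so a shift between them would not show.

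Myl9 (chromosome 2, 156775420 to 156781658, plus strand) had few reads, with 4.22, 3.59 and 5.06 CPM in knockout cells, against 2.08, 3.20 and 2.66 CPM in wild-type cells. These levels came from 97 reads over the knockout libraries and 81 over the deeper wild-type libraries. Every knockout library was above every wild-type library. The means were 4.29 ± 0.737 CPM in the knockout and 2.65 ± 0.557 CPM in wild type. The log2 fold change was 0.54 (SE 0.172) on the scale of log2(CPM + 1), which makes changes at such low levels too small. In the authors' deposited table the log2 fold change of Myl9 was 0.721. The spread between libraries, 17.2% in the knockout and 21.0% in wild type, was close to the 17.6% and 19.2% given by counting alone. Limma did not call Myl9 without knockout replicate 1 or 3 (adjusted p 0.0589 and 0.162) or without wild-type replicate 1 or 3 (0.182 and 0.0828). DESeq2 on recovered reads did not call it either (0.18).

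Of the other contractile and filament-binding SRF targets, 22 of 24 were tested, of which 3 were called higher, 3 lower and 16 did not pass. The called share was 27.3%, against 14.0% over all tested genes, and the median log2 fold change was -0.01. This list too was drawn up with earlier results of these data known, so its share is a description. Cald1, which encodes caldesmon, an actomyosin regulator, rose to 161 ± 11.3 CPM in the knockout, against 134 ± 9.88 CPM in wild type (log2 fold change 0.26, limma adjusted p = 0.000434). Myh10, a non-muscle myosin heavy chain gene, rose to 121 ± 4.42 CPM, against 109 ± 6.10 CPM in wild type (0.15, limma adjusted p = 0.0315). Tagln2, a non-muscle relative of Tagln, fell to 124 ± 8.40 CPM, against 139.5 ± 3.50 CPM in wild type (-0.17, limma adjusted p = 0.012). Csrp1, of the LIM protein family, fell to 116 ± 4.55 CPM, against 129.6 ± 8.79 CPM in wild type (-0.15, limma adjusted p = 0.0275).

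The light chain genes Myl6 and Myl12b, named after their values were seen, were the remaining calls, at 0.14 and -0.11 on the log2 scale. The Cald1 call held under all 14 alternatives. Tagln2 was lost without knockout replicates 1 and 3 and wild-type replicate 2, and Csrp1 without knockout replicate 1 and wild-type replicates 2 and 3, with adjusted p up to 0.0852 and 0.253. Myh10 was lost without knockout replicates 2 and 3 and wild-type replicates 1 and 2 (up to 0.221). Myl6 was lost without knockout replicate 3 (0.0717), and Myl12b without knockout replicates 1 and 3 and wild-type replicates 2 and 3 (up to 0.247). DESeq2 on recovered reads called none of Csrp1, Myh10 and Myl12b. Limma without the filter called none of them either (adjusted p = 0.0717, 0.0667 and 0.0902). With a pseudocount of 0.25 it did not call Myl12b (0.0501).

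The smooth muscle members were near the limit of detection in both groups. Tagln (chromosome 9, 45929619 to 45936058, minus strand), the gene of transgelin, stood at 2.37, 1.20 and 1.73 CPM in knockout cells, against 1.36, 1.55 and 1.60 CPM in wild-type cells. The knockout libraries lay on both sides of the wild-type ones, and the log2 fold change was 0.12 (SE 0.201). From 40 reads over the knockout libraries and 46 over the wild-type libraries, the plain ratio was 1.21 (exact 95% interval 0.771 to 1.89, counting error only). Exons of the antisense gene Gm48529 cover 62.4% of the Tagln exon bases, and those of Pcsk7, also on the opposite strand, cover 5.43%. Pcsk7 stood at 17.9 ± 0.794 CPM in the knockout and 15.4 ± 1.22 CPM in wild type. With strand unknown the reads may belong to any of these genes.

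Cnn1 (chromosome 9, 22099216 to 22109630, plus strand) had 4, 3 and 1 reads in the knockout libraries, against 3, 4 and 2 reads in the wild-type libraries. Its plain ratio of knockout over wild type, 1.24, had an exact 95% counting interval of 0.415 to 3.61. Acta2 (chromosome 19, 34241090 to 34255590, minus strand) had 1, 2 and 1 reads in the knockout libraries, against 1, 5 and 3 in the wild-type libraries. Its ratio was 0.618, with an interval of 0.139 to 2.21. A change of these genes was not detectable at this depth. The other muscle actins, Acta1, Actc1 and Actg2, summed to at most 0.345 CPM in a knockout library and 0.678 CPM in a wild-type library, and none passed the filter.

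To compare the genes with each other, levels were divided by exon length (CPM per kilobase of GENCODE M21 exons). In the knockout the order was Actg1 (934 ± 5.15), Actb (569.8 ± 8.86), Cnn2 (26.2 ± 0.516), Srf (17.9 ± 0.880), Vcl (13.8 ± 0.660), Tpm1 (8.37 ± 0.513), Myl9 (3.69 ± 0.634) and Tagln (0.888 ± 0.296). In wild type it was Actg1 (927 ± 18.9), Actb (783 ± 15.9), Cnn2 (18.8 ± 1.00), Srf (18.4 ± 1.23), Vcl (12.7 ± 0.358), Tpm1 (8.70 ± 0.205), Myl9 (2.28 ± 0.479) and Tagln (0.755 ± 0.0638). Cnn1 and Acta2 came last in both groups, at 0.141 and 0.0894 in the knockout and 0.106 and 0.136 in wild type, where their order was the other way round. The neighbours Cnn2 and Srf did not differ beyond their spread in wild type, whereas in the knockout Cnn2 stood clear above Srf. The order of Cnn2, Srf, Vcl and Tpm1 depends on the length used. Per kilobase of the longest coding transcript they stood at 26.2, 19.8, 21.5 and 18.8 in the knockout and 18.8, 20.4, 19.8 and 19.5 in wild type, while the places of the other 6 genes were the same. Actb and Actg1 supplied 93.2% of the CPM summed over the 10 genes in the knockout and 94.5% in wild type.

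Among genes that control the pool of actin monomers, 1 of 17 tested was higher, 1 lower and 15 did not pass. The called share was 11.8%, against 14.0% over all tested genes, and the median log2 fold change was 0.04. Tmsb4x, which encodes the monomer-sequestering thymosin beta 4, fell to 41.1, 43.1 and 44.7 CPM in knockout cells, against 58.5, 60.5 and 58.5 CPM in wild-type cells (log2 fold change -0.45, SE 0.0582, limma adjusted p = 1.5e-06). Dstn, the gene of the filament-severing protein destrin, rose to 485, 476 and 501 CPM in knockout cells, against 397, 417 and 411 CPM in wild-type cells (0.25, SE 0.0302, limma adjusted p = 3.32e-07). The groups did not overlap for either gene, and both calls held under all 14 alternatives. Without knockout replicate 3, 2 genes of this list were called higher.

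In the Arp2/3 complex, which nucleates branched filaments, 1 of 9 genes was lower and 8 did not pass (11.1% called against 14.0% over all tested genes, median 0.01). The lower one was Arpc1b, a subunit gene, at 78.5, 83.0 and 78.2 CPM in knockout cells, against 107, 112 and 105 CPM in wild-type cells (log2 fold change -0.43, SE 0.0467, limma adjusted p = 7.67e-08). Its paralog Arpc1a stood at 85.7 ± 5.03 CPM in the knockout and 92.4 ± 4.73 CPM in wild type. The Arpc1b call held under all 14 alternatives, and without knockout replicate 2 Arpc1a was called lower too (adjusted p = 0.0389). Actr3, the gene of the ARP3 subunit, was called higher with a pseudocount of 4, at a mean of at least 10 CPM and with the replicate number as a block (adjusted p = 0.0496, 0.0437 and 0.0163).

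Immediate-early SRF targets were low or did not pass. Of 11 listed, 6 were tested and 0 called by limma, edgeR or DESeq2; 1, Nr4a1, had an unadjusted limma p under 0.05. Mcl1, a survival gene, stood at 466 ± 15.6 CPM in the knockout and 449 ± 17.4 CPM in wild type, and Ier2 at 90.1 ± 2.60 CPM in the knockout and 91.0 ± 5.57 CPM in wild type. Egr2 had no read in any library. Of 9 genes of the YAP pathway or its targets shared with MRTF, 7 were tested and 0 called by limma, edgeR or DESeq2. At an unadjusted p under 0.05 there were 2, Yap1 and Cyr61. Over all tested genes limma called 14.0%. Yap1, the gene of the coactivator itself, stood at 198 ± 5.45 CPM in the knockout and 184 ± 3.12 CPM in wild type (limma adjusted p = 0.0516), and Tead1, its DNA-binding partner, at 207 to 211 CPM in the knockout and 188 to 216 CPM in wild type. Without knockout replicate 1 limma called Yap1 (adjusted p = 0.0446), as it did with a pseudocount of 4 (0.0484), at a mean of at least 10 CPM (0.043) and with the replicate block (0.0177), and without wild-type replicate 3 it called Tead1 (adjusted p = 0.0445).

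Over all 9 lists, 102 of 115 genes were tested, with 14 higher, 9 lower and 79 not past the test, a called share of 22.5% against 14.0% over all tested genes. Of these 23 calls, 10 held under all 14 alternatives; they were 8 higher and 2 lower genes. The 9 lower calls became 2 without wild-type replicate 2, and 5 each without knockout replicate 3 or wild-type replicate 1 or 3. Over the whole table the 813 higher calls became 512 without wild-type replicate 2. Genes with a CArG box before the start, members left out, had a called share of 21.4% (17 higher and 10 lower of 126), against 14.0% (605 and 702 of 9343) for genes without one. Their median log2 fold changes were 0.0197 with a box and 0.00524 without. No test of these shares was made. The 14.0% over all tested genes covers genes of every level, and the lists were not matched to it by level. All the lists were drawn up with earlier results of these data known, so their shares are a description. Of 291 tested genes with a mean of at least 500 CPM, 39 were called higher and 25 lower. Of 102 with at least 1000 CPM, 7 were higher and 7 lower.

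Markers of other cell types that use these genes stayed low. Smooth muscle markers summed to 17.95 to 19.4 CPM in the knockout and 15.3 to 18.3 CPM in wild type; of 6 listed, 3 were tested and 0 called by limma, edgeR or DESeq2 (1, Des, at an unadjusted p under 0.05). Fibroblast markers, which feeder cells also carry, summed to 23.6 to 31.5 CPM in the knockout and 24.6 to 28.5 CPM in wild type. Of the 9 fibroblast markers 3 were tested. Pdgfrb was higher and Thy1 lower (log2 fold changes 0.39 and -0.95, limma adjusted p = 0.0133 and 1.2e-05), and the matrix genes Postn and Dcn had no read. Markers of heart and skeletal muscle (7 listed, 2 tested, 0 called by any of the 3 tools, 1 at an unadjusted p under 0.05) summed to 9.41 to 10.7 CPM in the knockout and 9.60 to 11.2 CPM in wild type. Primitive endoderm markers (6 listed, 2 tested, 0 called by any of the 3 tools, 1 at an unadjusted p under 0.05) summed to 4.62 to 6.10 CPM in the knockout and 3.19 to 5.43 CPM in wild type. Mesoderm markers summed to 38.3 to 43.1 CPM in the knockout and 34.4 to 38.1 CPM in wild type, with Eomes the 1 called gene of 3 tested (0.27, limma adjusted p = 0.0341). DESeq2 called neither Eomes nor Pdgfrb (adjusted p = 0.134 and 0.0739) but did call Thy1. Limma called Eomes without knockout replicate 2 but not without any other single library (adjusted p up to 0.225), and it did not call Pdgfrb without knockout replicate 2 (0.113) or wild-type replicate 3 (0.0883). Over all tested genes limma called 14.0%, and these marker lists hold few tested genes. The part of these cells in the results was not tested.

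The genes whose pattern over the 6 libraries was most like the mean centred profile of the 8 tested members were Golga3, Ppp1r26, Gpr89, Atat1 and Tia1. Their Pearson correlations over 6 libraries were 0.992, 0.991, 0.983, 0.970 and 0.968, the highest of 8966 genes with a mean of at least 10 CPM. With so many genes and only 6 points, correlations this high can also arise by chance, which was not tested. The points share depth and group, and none of the 5 genes was called by limma. Each member had the same weight in the profile, so Tagln and Myl9, with few reads, counted as much as Actb. From knockout replicate 1 to 2, where the profile fell, Tagln went from 2.37 to 1.20 CPM and Myl9 from 4.22 to 3.59 CPM. The part of counting noise in these correlations was not tested. The mean profile itself was 0.07, -0.03 and 0.09 in the knockout libraries, against -0.08, 0.0041 and -0.05 in the wild-type libraries on the log2 scale, small beside the opposite differences of Actb and Cnn2.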

How the data were processed

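The authors trimmed reads with cutadapt, mapped them to mm10 by TopHat and used edgeR for their own comparison, per the submitters' processing notes. Not given in the sources used here: tool versions, counter, annotation and strandedness. The authors deposited CPM per library beside their log2 fold change, mean log2 CPM, p-value and false discovery rate of each gene, per the file headers. The sign of the deposited log2 fold change is knockout over wild type. Of 25833 rows, 1097 had no values and 315 repeated a gene. All CPM values were whole reads over the library total (tolerance 0.01 of a read), so 3 reads equal 0.272 to 0.513 CPM. Libraries of a group differed by more than sampling noise (chi-square per degree of freedom 1.33 to 1.64, between groups 3.19 to 4.53), and all 6 were counted.

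Values of log2(CPM + 1) from all 6 libraries went into limma 3.58.1 (eBayes with trend, no covariate), for 12435 genes kept by edgeR's filterByExpr on recovered reads, with Benjamini-Hochberg adjustment over all of them and a threshold of 0.05. Whole reads came out for 100% of the values; edgeR 4.0.16 (quasi-likelihood, TMM) and DESeq2 1.42.0 were run on them as alternatives. On the recovered reads edgeR called 1820 genes. The pipeline was tested on simulated counts.

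Members and lists were chosen with earlier results of these data known. Named genes are the 10 members, up to 4 called genes per list by size of change (the 2 most abundant tested genes of a list with no call), and the 5 genes of most similar profile. Older symbols were matched through RefSeq synonyms. Gene positions, exon lengths and transcripts are from GENCODE M21 (mm10), and promoters from RefSeq (GRCm38.p6). For 1 of the 9 lists and 1 gene of another, single results are not reported here.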

Additional observations from a re-analysis of the deposited data

How the results depend on the processing

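Leaving out 1 library at a time gave 512 to 872 genes higher and 632 to 980 lower over the whole table, 10 to 14 listed pathway genes higher and 2 to 9 lower, and 6 to 8 focal adhesion genes higher and 0 to 2 lower. Of the 10 members, 1 to 2 were called higher and 1 lower. Actb and Cnn2 were called in every alternative and Myl9 was not. As the members were chosen with this contrast known, member calls in refits of the same libraries are a description and give no independent support. The log2 fold change of Ier2 lay between -0.0574 and 0.0301, turning positive without knockout replicate 1 or wild-type replicate 1. DESeq2 on recovered reads called 334 genes higher and 468 lower, of the listed genes 9 higher and 3 lower, of focal adhesion genes 0 lower, and 1 member higher. Without the filter, and equally at a minimum mean of 10 CPM, 1 member was called higher; Myl9 is below that mean. The cause of the other shifts was not tested. Same-numbered libraries deviated together by correlations of 0.11, 0.112 and 0.0436, and the 6 pairs with different numbers by -0.116 to 0.00879. Every library thus correlated best with its own number, a hint from the data and not from the design; as 1 of the 3 was under 0.1, the numbers were not taken as pairs. A fit with the replicate number as a block called 1138 genes higher and 1199 lower, and 17 and 9 listed genes, with 3 members higher (Vcl added, adjusted p = 0.0305), against 813, 932, 14, 9 and 2 without it. Rescaling by TMM factors (0.997 to 1.003) gave 778 and 956. Pseudocounts of 0.25 and 4 left all member calls in place, and 4 moved the log2 fold change of Myl9 to 0.32. Depth limits Acta2, Cnn1, Tagln and Myl9.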

Other observations

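Actb is often used as a reference gene in PCR assays, so 12 other genes in common use for that purpose were listed after the Actb values had been seen. Of these, 11 were tested, 1 was higher (Polr2a, the gene of the largest RNA polymerase II subunit, log2 fold change 0.11, limma adjusted p = 0.0101) and 0 were lower, with log2 fold changes between -0.10 and 0.11. The level of Actb divided by that of each of the 11 was lower in every knockout library than in every wild-type library. These ratios all reuse the same Actb values, whose groups do not overlap, so they are not 11 separate results. Divided by Ppia, the gene of cyclophilin A, it was 0.601 ± 0.0159 in the knockout and 0.833 ± 0.0151 in wild type (SD, n = 3 each). The gene left out of the test was Hprt, with a mean of 0.240 CPM in the knockout and 0.265 CPM in wild type. Some E14 sublines are known to carry a deletion in Hprt.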
